A study of Rattus norvegicus with 12 samples.

Results

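The genes studied here were the 9 adrenergic and dopamine receptor genes Adra1a, Adra1b, Adra1d, Adra2a, Adra2c, Adrb1, Drd1, Drd2 and Drd5, taken by name from the 17494 genes of the counts table. All 9 passed the filter on low counts that precedes the test. Their transcripts were measured by bulk RNA-seq in the hippocampus of wild-type male Long Evans rats, 1 library per rat. All 12 rats received 3 low-level blast exposures beginning at 10 weeks of age and were killed 29 weeks after blast. The 6 blast-boldine rats were fed chow with boldine at 500 mg/kg, an alkaloid of the boldo tree, and the 6 blast-control rats were fed chow without it. The comparison therefore asked whether receptor transcripts differed with boldine among blast-exposed rats, and rats without blast were not analysed here.

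Noradrenaline and adrenaline act through adrenergic receptors, and dopamine acts through dopamine receptors, all of which couple to G proteins. The alpha-1 receptors couple mainly to Gq and phospholipase C. The alpha-2 receptors and the dopamine D2 receptor couple to Gi/o and lower cyclic AMP, whereas beta-1, D1 and D5 receptors couple to Gs or Golf and raise it. In the hippocampus noradrenaline arrives in axons from the locus coeruleus, which can also release dopamine, and dopamine arrives as well from the midbrain. Both transmitters are known to modulate synaptic plasticity and memory there.

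The sample labels give the tissue only as brain, and the hippocampus is named in the study's methods. Markers of hippocampal principal neurons were present in every library of usable depth. The summed level of 5 CA1 pyramidal neuron markers, Wfs1 among them, was 584 to 738 CPM (counts scaled to the library total) in blast-boldine and 685 to 971 CPM in blast-control rats, and that of the dentate granule neuron markers with Prox1 was 193 to 298 and 166 to 315 CPM. Of 5 dentate genes listed, 4 were in the counts table, and Tdo2 among them had at most 3 counts. Cortical layer neuron markers summed to 164 to 234 and 194 to 242 CPM in the same groups. Choroid plexus markers summed to 8.70 to 1190 and 14.0 to 1170 CPM. The markers therefore do not show that the tissue was hippocampus alone. Library totals lay between 10148474 and 40850106 counts in 11 rats. Blast-control rat 6 had 74008 counts, so that a single read was worth 15.8 CPM and 3 counts, taken as the lowest detectable value, were worth 47.5 CPM. In the other libraries 3 counts were worth 0.0658 to 0.307 CPM, which covers counting error only.

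Rat 6 could not measure most of these receptors. It had 0 counts for 7 of the 9 genes, which allows levels of up to 47.5 CPM, above the level of each of these 7 in every other rat. It had 1 count for Adra2c and 15 counts for Adra1d. The Adra1d count corresponded to 237.6 CPM (exact Poisson 95% interval 133 to 392), whereas the other 11 rats lay between 34.7 and 70.6 CPM on the same normalization and their mean would have given 3.21 counts at the depth of rat 6. Values below are therefore those of 11 rats, 6 blast-boldine and 5 blast-control, and tests are given with all 12 and with these 11.

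The 11 libraries also fell into 2 sets that crossed the treatment. The number after the letter S in the library names runs from 1 to 6 and each number occurs on 2 libraries. On the assumption that each set holds every number once and that rat numbers rise with it within a set, 4 divisions into 2 sets were possible and were compared, and 1 of them accounted for 95.1% of the first principal component, which held 66% of the variance in expression. Treatment accounted for 1.53% of that component. Set A held blast-control rats 1, 7 and 9 and blast-boldine rats 20, 32 and 35, and set B held blast-control rats 4, 5 and 6 and blast-boldine rats 12, 17 and 19. The sources used here do not say what the sets were, and because they were chosen with these data, differences between them are described without a test.

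Per length of annotated exon, the alpha-1D gene Adra1d was the most abundant of the 9 and the D2 gene Drd2 the least. Mean RPKM (CPM per kilobase of exon, SD over 11 rats) were 17.5 ± 4.35 for Adra1d, 11.4 ± 3.76 for the alpha-2C gene Adra2c, 7.07 ± 0.589 for the alpha-1A gene Adra1a and 6.11 ± 2.23 for the beta-1 gene Adrb1. The D1 gene Drd1 was at 3.53 ± 0.957 RPKM and the alpha-2A gene Adra2a at 2.60 ± 0.967 RPKM. The lowest were the D5 gene Drd5 at 1.295 ± 0.537, the alpha-1B gene Adra1b at 0.855 ± 0.291 and Drd2 at 0.700 ± 0.297 RPKM. Adra1d thus stood at the 54.2nd percentile of the genes tested and Drd2 at the 5.37th, so that each transcript lay in the middle or lower range of expressed genes.

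**Figure D1:**
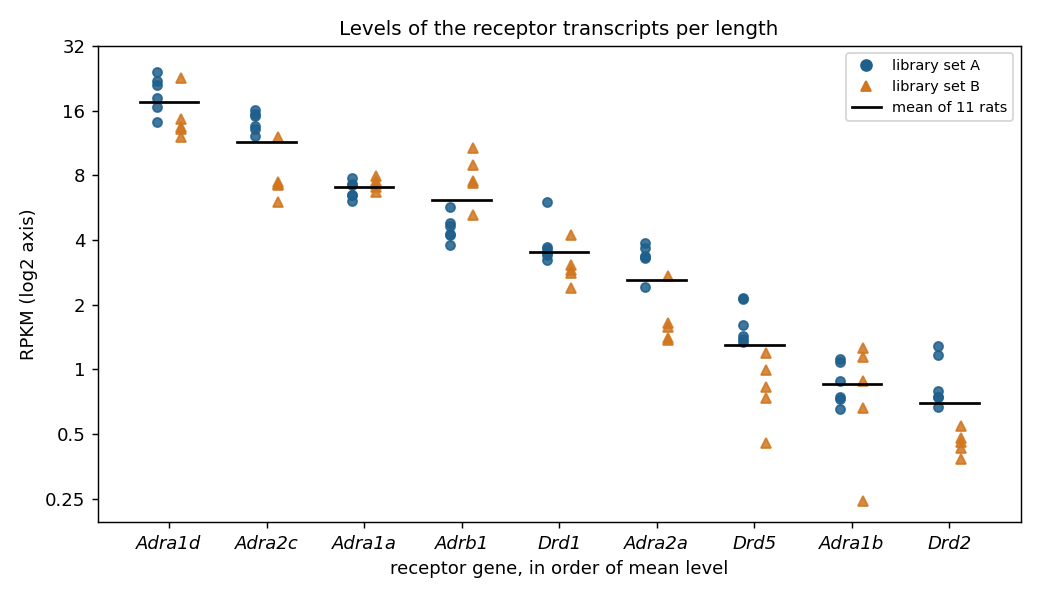
Level of each receptor transcript in RPKM on a log2 axis, in order of the mean over 11 rats (black lines), with circles for library set A and triangles for library set B. Adra1d had the highest mean at 17.5 RPKM and Drd2 the lowest at 0.700 RPKM, and the points of the 2 sets separated for Adra2c, Drd5 and Drd2.

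Neighbours in this order were compared within rats by an exact two-sided sign-flip permutation test of log2 RPKM. The pairs and their direction were taken from the mean RPKM of these same 11 rats, so that p is no independent test of the order. The test also treats the rats as alike, although several differences varied with library set. Of 8 neighbouring pairs, 5 differed at an adjusted p under 0.05. Adra1d was above Adra2c in 11 of 11 rats by 0.65 log2 RPKM (exact permutation, adjusted p = 0.00391), and Adra2a was above Drd5 in 11 of 11 rats by 0.97 (exact permutation, adjusted p = 0.00391). Adra2c over Adra1a, Adrb1 over Drd1 and Drd1 over Adra2a held in 9, 10 and 10 of the 11 rats. The first of these rested on set A, where Adra2c was above Adra1a by 1.04 log2 RPKM in 6 of 6 rats, whereas in set B the difference was 0.09, in 3 of 5 rats. Adrb1 over Drd1 was 0.24 in set A and 1.33 in set B, and Drd1 over Adra2a was 0.21 and 0.81. The order of Adra1a and Adrb1 was not resolved, since their difference of 0.28 log2 RPKM had an adjusted p of 0.0804 (exact permutation), and in set B it was -0.09. Drd5 over Adra1b (0.52 log2 RPKM, exact permutation, adjusted p = 0.0804) and Adra1b over Drd2 (0.26, exact permutation, adjusted p = 0.226) were likewise not resolved, and the latter was -0.03 in set A. The exon lengths used ran from 1401 bases (Adrb1) to 3426 bases (Drd1). Reads were counted on these same exons, and the effect of an incomplete gene model on RPKM was not tested.

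Among the alpha-1 receptors, Adra1a was the least variable of the 9 genes. It lies on chromosome 15 (chr15:40832555-40922324, plus strand, build mRatBN7.2, as are all gene positions here). Its levels in blast-control rats 1, 4, 5, 7 and 9 were 10.4, 11.4, 10.1, 9.28 and 9.21 CPM, and the blast-boldine rats had a lowest, median and highest level of 8.63, 10.3 and 11.1 CPM. The groups covered nearly the same range, with means of 10.1 ± 0.881 (SD, n = 6) and 10.1 ± 0.894 CPM (SD, n = 5) in blast-boldine and blast-control rats. The coefficient of variation over 11 rats was 8.33%, beside 8.22% from counting error alone. The edgeR log2 fold change, boldine over control, was 0.01 with a 95% interval of -0.24 to 0.25, so that the interval for the fold ran from 0.846 to 1.19.

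Adra1d, at chr3:118793346-118809354 on the minus strand, was at 41.5, 66.9, 35.5, 49.2 and 70.9 CPM in blast-control rats 1, 4, 5, 7 and 9. The blast-boldine rats had a lowest, median and highest level of 38.7, 48.6 and 64.6 CPM, all within the control range. Means were 50.4 ± 11.5 CPM (SD, n = 6) with boldine and 52.8 ± 15.5 CPM (SD, n = 5) without, a log2 fold change of -0.06 (95% interval -0.53 to 0.40). With rat 6 included the log2 fold change was -0.30 ± 0.34 (SE). Other changes with rat 6 kept moved it as well. It was -0.42 without rat 1 or without rat 5, -0.43 with DESeq2, -0.12 with the library set as a covariate and -0.03 with limma-voom.

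Adra1b, at chr10:28255025-28312919 on the minus strand, rested on few counts, 6 to 120 per library. It was at 2.68, 2.20, 2.83, 2.79 and 1.84 CPM in blast-control rats 1, 4, 5, 7 and 9, and its lowest, median and highest levels in blast-boldine rats were 0.608, 1.73 and 3.14 CPM. The lowest and the highest of the 11 rats were both blast-boldine rats of set B, rats 17 and 19. Means were 1.84 ± 0.827 CPM (SD, n = 6) and 2.47 ± 0.431 CPM (SD, n = 5), where the log2 fold change of -0.42 had a 95% interval from -1.09 to 0.25. Leaving out rat 17 from the 12 libraries brought the log2 fold change to -0.25, and leaving out rat 19 brought it to -0.60.

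Both alpha-2 receptors, which on noradrenergic neurons act as inhibitory autoreceptors and also occur on their target cells, differed by 0.95 (Adra2a) and 0.87 (Adra2c) log2 CPM between the library sets. Adra2a, a gene of 1 exon at chr1:253061480-253064280 on the plus strand, was at 9.21, 7.58, 4.40, 9.45 and 9.29 CPM in blast-control rats 1, 4, 5, 7 and 9. Its lowest, median and highest blast-boldine levels were 3.85, 5.67 and 10.9 CPM. The 3 blast-boldine rats of set B were the lowest but for rat 5, also of set B, which lay between them. Means were 6.71 ± 3.18 CPM (SD, n = 6) with boldine and 7.99 ± 2.14 CPM (SD, n = 5) without it, or a log2 fold change of -0.25 (95% interval -0.95 to 0.46). Single rats moved this value: with all 12 libraries it was -0.22, it came to -0.11 to -0.13 on leaving out rat 12, 17 or 19, and to -0.37 to -0.41 on leaving out rat 5, 20 or 32.

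Adra2c, a gene of 1 exon at chr14:75471143-75472846 on the minus strand, was at 23.2, 20.7, 12.4, 25.9 and 22.4 CPM in blast-control rats 1, 4, 5, 7 and 9. The blast-boldine rats had a lowest, median and highest level of 10.2, 16.8 and 27.3 CPM. The groups overlapped, and in both the highest rats were of set A and the lowest of set B. Means were 18.3 ± 7.58 CPM (SD, n = 6) with boldine and 20.9 ± 5.12 CPM (SD, n = 5), for which edgeR gave a log2 fold change of -0.19 (95% interval -0.82 to 0.45). From -0.17 with all 12 libraries it came to -0.06 to -0.09 on leaving out rat 7, 12, 17 or 19, and to -0.31 to -0.32 on leaving out rat 5, 20 or 32.

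Adrb1, a gene of 1 exon at chr1:255772217-255773617 on the plus strand, encodes the beta-1 receptor, which raises cyclic AMP. It was at 6.71, 15.0, 7.34, 7.94 and 5.94 CPM in blast-control rats 1, 4, 5, 7 and 9, and at a lowest, median and highest level of 5.31, 8.41 and 12.6 CPM in blast-boldine rats. Rat 4 stood above every other rat. The means were 8.55 ± 2.99 CPM (SD, n = 6) with boldine and 8.58 ± 3.65 CPM (SD, n = 5), with a log2 fold change of -0.01 (95% interval -0.66 to 0.64). Without rat 4, but with rat 6, the log2 fold change was 0.30 ± 0.26 (SE), and no direction can be given for Adrb1.

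Drd1, at chr17:10541546-10544971 on the plus strand, had the smallest treatment p of the 9 genes, although it did not pass the test. It encodes the D1 receptor, the more abundant of the Gs/Golf-coupled dopamine receptors in the forebrain. Its level was 20.5, 9.58, 14.5, 12.5 and 11.6 CPM in blast-control rats 1, 4, 5, 7 and 9, and blast-boldine rats had a lowest, median and highest level of 8.21, 10.8 and 12.7 CPM. Rat 1 was the highest and rat 4 lay below 5 of the 6 blast-boldine rats, so that the groups overlapped. Means were 10.7 ± 1.58 CPM (SD, n = 6) and 13.7 ± 4.18 CPM (SD, n = 5). The log2 fold change was -0.36 ± 0.19 (SE) with a 95% interval of -0.78 to 0.06 (edgeR, unadjusted p = 0.0865, adjusted p = 0.9998), and with the library set as a covariate it was -0.33 ± 0.16 (edgeR, unadjusted p = 0.0581). The difference was -0.28 log2 CPM within set A and -0.31 within set B.

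The Drd1 difference rested in part on rat 1, the deepest library. Without rat 1, but with rat 6, the log2 fold change was -0.13 ± 0.21 (SE), beside -0.33 ± 0.22 with all 12. Among genes listed as markers of striatal projection neurons, which express Drd1 or Drd2 strongly, Adora2a at 2.88 CPM and Gpr6 at 1.78 CPM were also highest in rat 1 of the 11 rats. Penk, of the same list, was at 29.1 CPM in rat 1, the 10th of 11, and Tac1 at 3.10 CPM was the 5th. The summed level of the list, normalized with all 12 libraries, was 71.0 CPM in rat 1. It lay within the ranges of 51.1 to 102 CPM in blast-control and of 53.9 to 85.2 CPM in blast-boldine rats. The part of striatal RNA in the Drd1 difference was not tested.

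Drd5, a gene of 1 exon at chr14:72489347-72490774 on the minus strand, encodes the other D1-like receptor. It had 10 to 92 counts per library and was at 2.05, 1.70, 1.05, 1.99 and 1.93 CPM in blast-control rats 1, 4, 5, 7 and 9. Blast-boldine rats had a lowest, median and highest level of 0.648, 1.86 and 3.07 CPM, which enclosed the whole control range. Means were 1.94 ± 1.01 CPM (SD, n = 6) with boldine and 1.74 ± 0.41 CPM (SD, n = 5) without, which edgeR put at 0.16 on the log2 scale (95% interval -0.66 to 0.97). The difference was 0.46 log2 CPM within set A and -0.34 within set B, and the difference between these values was not tested.

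Drd2, at chr8:49708927-49772875 on the plus strand, encodes the D2 receptor, which lowers cyclic AMP. It had 10 to 143 counts per library and was at 3.19, 1.497, 1.05, 3.54 and 1.84 CPM in blast-control rats 1, 4, 5, 7 and 9. The blast-boldine rats had a lowest, median and highest level of 1.18, 1.68 and 2.17 CPM. Blast-control rats 1 and 7 were above all blast-boldine rats and rat 5 was below them all. Means were 1.67 ± 0.463 CPM (SD, n = 6) and 2.22 ± 1.09 CPM (SD, n = 5), where the log2 fold change of -0.44 had a 95% interval from -1.14 to 0.27. From -0.43 with all 12 libraries it came to -0.21 without rat 7 and -0.26 without rat 1. The difference was -0.38 log2 CPM within set A and -0.005 within set B.

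**Figure D2:**
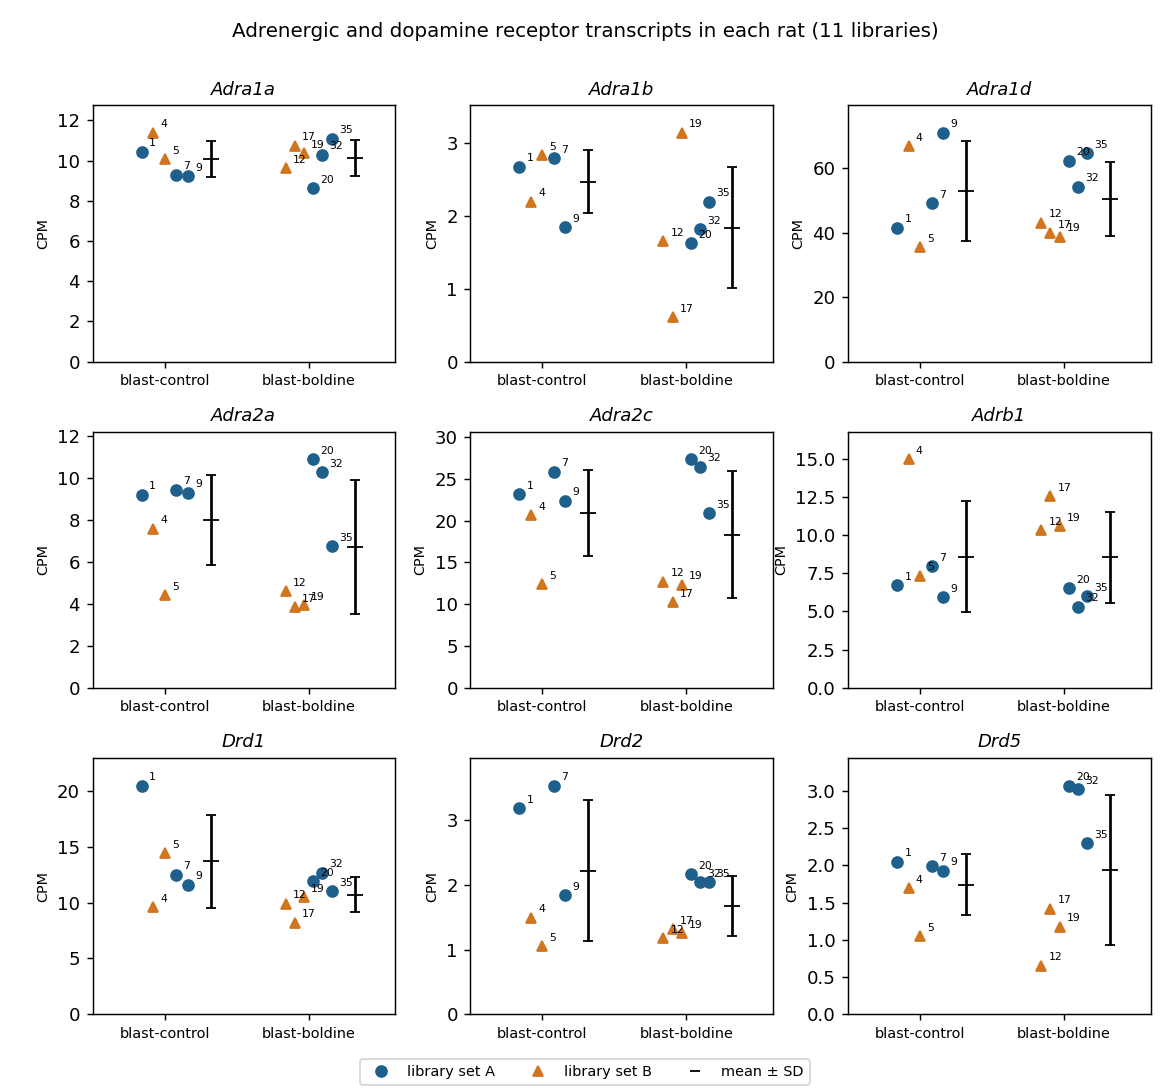
CPM of each receptor gene in each of 11 rats, numbered, by treatment group, with circles for library set A, triangles for library set B and the mean ± SD of each group. The treatment groups overlapped for all 9 genes, and blast-control rat 1 was the highest for Drd1 (20.5 CPM) and rat 4 for Adrb1 (15.0 CPM).

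None of the 9 genes passed the treatment test. In the edgeR quasi-likelihood test with Benjamini-Hochberg adjustment over all genes, 0 of 9 had an adjusted p under 0.05 with 12 libraries, beside 0% of the 12325 genes tested. At an unadjusted p under 0.05 the count was 0 of 9 with 12 libraries (1.07% of all genes tested), 0 of 9 with 11 libraries (1.4% of all genes) and 0 of 9 with 11 libraries and the library set as a covariate (5.35% of all genes). The CPM of the treatment groups overlapped for 9 of 9 genes, and 0.136% of all genes had groups that did not overlap. When mean log2 CPM was compared over 11 rats by exact permutation, whose smallest possible p is 0.00216, two-sided p ran from 0.126 (Drd1) to 0.994 (Drd5).

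The log2 fold changes lay below 0 for 6 of 9 genes with 12 libraries (median -0.22), for 7 of 9 with 11 libraries (median -0.19) and for 8 of 9 with the library set as a covariate (median -0.17). The medians over all genes tested in these fits were 0.0046, -0.00097 and -0.0082, and 48.7%, 50.3% and 52.6% of all genes lay below 0. The sign was the same in both library sets for 4 of the 9, Adra1b, Adra2a, Drd1 and Drd2, where Drd2 was at only -0.005 log2 CPM in set B. The share of all genes with the same sign was not computed, so that this count is no result about the receptors. The intervals show what these libraries left undetected. For Adra1a a fold below 0.846 or above 1.19 lay outside the 95% interval, whereas for Drd2 the interval reached from 0.453 to 1.20 and for Drd5 from 0.634 to 1.96. In bulk tissue, a lower share of receptor-expressing cells and less receptor RNA per cell cannot be told apart.

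**Figure D3:**
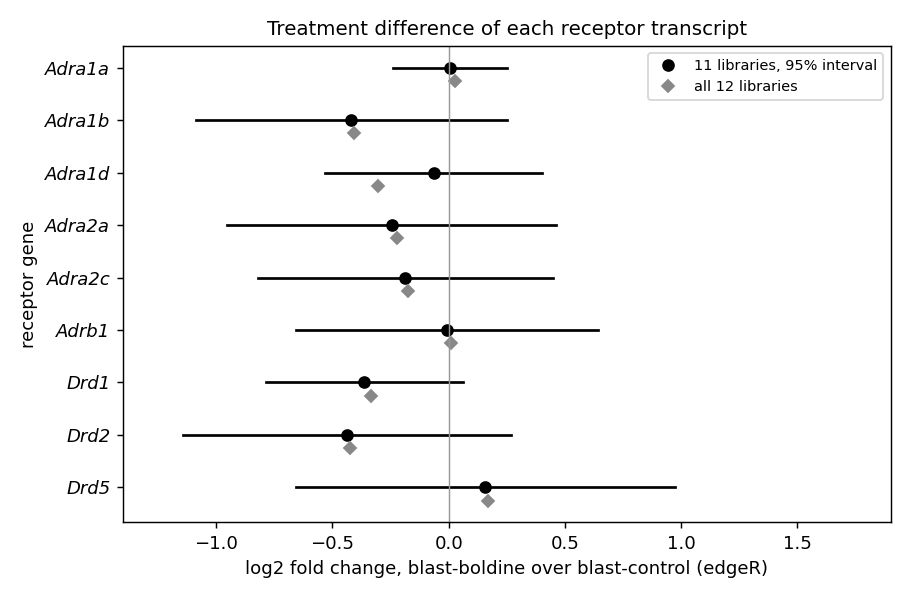
edgeR log2 fold change, blast-boldine over blast-control, of each receptor gene, with black points and 95% intervals for 11 libraries and grey diamonds for all 12. All 9 intervals included 0, the narrowest for Adra1a (-0.24 to 0.25) and the highest estimate for Drd5 (0.16).

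The CPM of the 2 library sets did not overlap for 3 of 9 receptors, Adra2c, Drd2 and Drd5, and all 3 were higher in set A. Over all genes tested 48.8% did not overlap, and the sets were chosen by these data, so that the separation is no result about the receptors. Adra2c was at 24.3 ± 2.57 CPM (SD, n = 6) in set A and 13.6 ± 4.03 CPM (SD, n = 5) in set B, Drd2 at 2.47 ± 0.708 and 1.26 ± 0.166 CPM, and Drd5 at 2.39 ± 0.524 and 1.20 ± 0.394 CPM. Adra2a was at 9.31 ± 1.42 and 4.87 ± 1.55 CPM with an overlap through rat 4. Adrb1 was in the opposite direction, at 6.40 ± 0.901 CPM in set A and 11.2 ± 2.83 CPM in set B. Adra1a differed by -0.09 log2 CPM between the sets, set A minus set B.

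The summed levels of several marker lists differed between the sets as well, beside 48.8% of all genes tested whose CPM did not overlap. The summed level of the dentate granule neuron markers was 166 to 218 CPM in set A and 224 to 315 CPM in set B, without overlap, while the CA1 markers overlapped at 685 to 811 and 584 to 971 CPM. The summed level of the microglial markers was 257 to 282 CPM in set A and 113 to 182 CPM in set B. That of the endothelial and mural cell markers was 104 to 145 and 226 to 285 CPM, and that of the thalamic neuron markers 20.3 to 30.2 and 47.9 to 66.8 CPM. In rat 1 of set A, the deepest library, genes of the dentate, endothelial and thalamic lists did not all lie on the same side of their means. Prox1 was at 107 CPM in rat 1 beside a mean of 143 over 11 rats. C1ql2 was at 81.5 beside 63.8 and Plk5 at 33.1 beside 26.6. Flt1 was at 41.1 beside 92.4 and Pdgfrb at 40.2 beside 40.3. Tcf7l2 was at 9.54 beside 20.4 and Prkcd at 18.2 beside 13.1. Values of rat 1 alone do not show how these genes differed between the sets. The sums are not read as shifts of whole cell types. Totals were 11835956 to 40850106 counts in set A and 10148474 to 17952696 in set B. The part of these differences in the receptor levels was not tested.

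**Figure D4:**
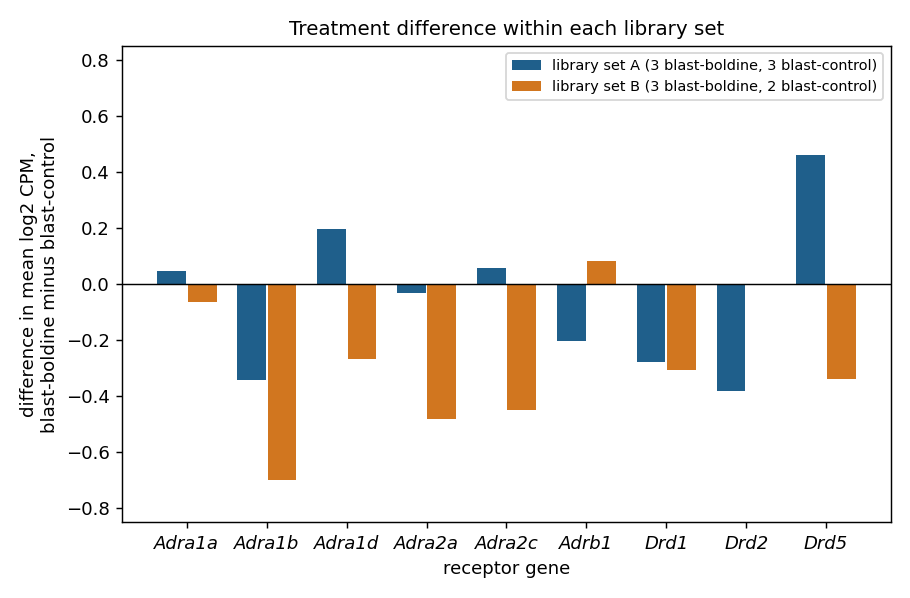
Difference in mean log2 CPM, blast-boldine minus blast-control, of each receptor gene within library set A (3 against 3 rats) and set B (3 against 2 rats, without rat 6). Adra1b, Adra2a, Drd1 and Drd2 lay below 0 in both sets, Drd2 at only -0.005 in set B, and Drd5 was at 0.46 in set A and -0.34 in set B.

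Promoter sequences are shown for 3 receptors as examples of the range of base composition, Adra2c with the highest and Drd1 with the lowest GC content of those matched, and Drd5 between them. RefSeq sequences of 250 bases before to 50 after the gene start (build GRCr8, a newer assembly than that of the counts) were matched by symbol for 8 of the 9 genes, all but Adra1a. Their GC content ran from 51.7% in Drd1 to 79.0% in Adra2c, and the median of all 33469 promoters was 51.7%. Capitals mark the GC box GGGCGG, the site known for Sp1 binding, read on either strand.
Adra2c, chr14:79697427-79697726, minus strand: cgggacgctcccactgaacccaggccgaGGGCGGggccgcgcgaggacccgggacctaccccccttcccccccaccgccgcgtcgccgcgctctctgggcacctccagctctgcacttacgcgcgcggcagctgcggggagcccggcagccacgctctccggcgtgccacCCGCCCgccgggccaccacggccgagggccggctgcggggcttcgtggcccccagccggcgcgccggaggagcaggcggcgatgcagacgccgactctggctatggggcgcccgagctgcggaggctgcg
Drd5, chr14:76703295-76703594, minus strand: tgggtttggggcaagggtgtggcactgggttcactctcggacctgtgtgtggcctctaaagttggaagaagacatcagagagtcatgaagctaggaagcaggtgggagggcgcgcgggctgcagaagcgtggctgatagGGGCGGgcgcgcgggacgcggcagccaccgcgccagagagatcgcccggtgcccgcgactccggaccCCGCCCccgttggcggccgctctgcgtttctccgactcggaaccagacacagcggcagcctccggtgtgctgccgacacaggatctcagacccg
Drd1, chr17:10546354-10546653, plus strand: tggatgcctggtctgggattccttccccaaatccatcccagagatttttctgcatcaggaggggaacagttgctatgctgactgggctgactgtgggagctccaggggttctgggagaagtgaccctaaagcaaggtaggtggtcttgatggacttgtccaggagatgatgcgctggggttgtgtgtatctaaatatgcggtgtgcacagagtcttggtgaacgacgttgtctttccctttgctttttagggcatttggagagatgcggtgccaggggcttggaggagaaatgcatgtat
The GC box was found in 4 of the 8 promoters, those of Adra1b, Adra2c, Drd2 and Drd5, and in 33.1% of all promoters. Its first bases lay 222 and 80 bases before the start of Adra2c and 111 and 44 bases before that of Drd5. The cyclic AMP response element TGACGTCA, read on either strand, was found in 0 of the 8 and in 1.83% of all promoters. No letters of the 2 motifs overlapped, and a match is a description of the sequence.

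Other receptors of these families were scarce. Adra2b, Drd3 and Drd4 did not pass the filter on low counts, with at most 16, 3 and 5 counts in a library. Adrb3, which encodes the beta-3 receptor, passed it and was at 0.953 ± 0.262 CPM (SD, n = 6) with boldine and 1.05 ± 0.263 CPM (SD, n = 5) without. Its log2 fold change was -0.10 ± 0.26 (SE), and it did not pass the test.

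Of 13 genes of catecholamine synthesis, transport and breakdown, 7 passed the filter. In either direction, 0 had an unadjusted p under 0.05 with 12 or with 11 libraries (edgeR), beside 1.07% and 1.4% of all genes. The most abundant were the monoamine oxidases, which break catecholamines down. Maob was at 103 ± 25.3 CPM (SD, n = 6) with boldine and 107 ± 24.3 CPM (SD, n = 5) without, and Maoa at 93.8 ± 9.84 and 83.1 ± 12.6 CPM. The transporters of noradrenaline (Slc6a2) and dopamine (Slc6a3) had at most 1 and 8 counts in a library, and dopamine beta-hydroxylase (Dbh) at most 21. The median log2 fold change of the 7 was 0.03 with 11 libraries.

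All 16 genes of G proteins and adenylyl cyclases were tested. At an unadjusted p under 0.05, 0 passed with 12 or with 11 libraries (edgeR), beside 1.07% and 1.4% of all genes. Their median log2 fold change was -0.05 with 11 libraries. Gnas, the stimulatory alpha subunit, was at 744 ± 39.6 CPM (SD, n = 6) with boldine and 803 ± 201 CPM (SD, n = 5) without, and Adcy1, a calcium-stimulated adenylyl cyclase, at 584 ± 82.4 and 664 ± 160.1 CPM. With the library set as a covariate and 11 libraries, 2 of the 16 were at an unadjusted p under 0.05, both with lower levels under boldine. These were Adcy1 (log2 fold change -0.22, edgeR, unadjusted p = 0.0375) and Adcy7 (-0.33, edgeR, unadjusted p = 0.0302), and neither passed after adjustment.

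Of 26 receptor regulators and effectors, all were tested. At an unadjusted p under 0.05, 0 passed with 12 or with 11 libraries (edgeR), beside 1.07% and 1.4% of all genes. Their median log2 fold change was 0.03 with 11 libraries. Prkcb, a protein kinase C, was at 603 ± 58.0 CPM (SD, n = 6) with boldine and 597 ± 64.2 CPM (SD, n = 5) without. Plcb1, the phospholipase C downstream of Gq, was at 551 ± 156 and 515 ± 138 CPM. With the library set as a covariate, Grk6, a receptor kinase (-0.14, edgeR, unadjusted p = 0.0470), and Pde4a, a cyclic AMP phosphodiesterase (-0.21, edgeR, unadjusted p = 0.0398), were at an unadjusted p under 0.05, and neither passed after adjustment. The 2 of 16 and 2 of 26 genes of these lists stand beside 5.35% of all genes in that fit.

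After the mean of each treatment and library set was removed, the receptors most alike among the 9 were Adra2a and Adra2c, with a Pearson r of 0.92 over 11 rats. The gene of all 12528 others closest to each receptor was Tor1a for Adra2a (r = 0.98), S1pr1 for Adra2c (r = 0.98), Epdr1 for Adra1d (r = 0.99) and Rbm8a for Drd1 (r = 0.97). The closest to Adra1a, Adra1b, Adrb1, Drd2 and Drd5 were Hdac10, Cdc20, Cfap410, Zbtb7c and Socs1, with r of 0.96 to 0.98. These are the highest values among many genes over few rats that share library depth, and they are given as a description.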

How the data were processed

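RNA from the hippocampus of 12 rats was sequenced from TruSeq stranded total RNA libraries depleted of ribosomal RNA. The authors removed PCR duplicates and trimmed reads with HTStream, used STAR 2.7.11b for alignment to mRatBN7.2 (rn7), which may report several alignments per read, and counted reads by strand on RefSeq exons with featureCounts of Subread 2.0.1. The deposited values are these counts per gene, without normalization. The stated counting command does not turn on counting of reads with several alignments, so that reads shared with near-identical sequence would be missing from the counts. No exon of the 9 genes overlapped another gene. The members and lists were chosen with earlier results of these data known.

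Treatment was tested on counts by edgeR 4.0.16's quasi-likelihood method (R 4.3.3, TMM, filterByExpr with a minimum of 10 counts, treatment as the only term, two-sided, Benjamini-Hochberg over all genes). Groups followed the labels, and p measures the spread between rats. The fit kept 12325 genes with 12 libraries and 12529 without blast-control rat 6. SE is the log2 fold change over the root of F, and intervals use the t distribution with edgeR's degrees of freedom. CPM are TMM-scaled, log2 CPM adds a prior count of 2, and log2 RPKM adds 0.1. Summed marker levels were normalized with all 12 libraries and their ranges leave out rat 6, whereas CPM of single genes were normalized with 11 unless stated. Exact permutation tests ran over 924 assignments (12 rats) or 462 (11 rats). The scripts were tested on simulated data. The alternatives were DESeq2 1.42.0, limma-voom (limma 3.58.1), RLE and upper-quartile factors, no filter, the library set as a covariate, a prior count of 0.5, tests within library sets and leaving out each rat. The text names all members, other receptors, of each pathway list the genes at an unadjusted p under 0.05 and the 2 with the highest CPM, and the gene nearest each member. Genes at an unadjusted p under 0.05 only with the library set as a covariate, and the low transporters, were named after their values were seen. Some genes of the lists are not reported here. Figures were drawn with matplotlib 3.10.9.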

Additional observations from a re-analysis of the deposited data

Results flagged for a closer look

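A sample far from the others of its group was found in 4 of 27 groups of receptor values, and chance alone gives about 1 in 20. The groups share the same rats and are not independent, so that their count cannot be weighed against that rate. Of the 4 found, 3 involved blast-control rat 6, the library of 74008 counts. Adra1a and Adra1b were at 0 CPM there, while the next lowest blast-control rats were at 9.06 and 1.83 CPM, and a count of 0 in that library allows 47.5 CPM. Adra1d was at 237.6 CPM in rat 6 from 15 counts, while the next highest blast-control rat was at 70.6 CPM. The remaining value was Adrb1 in blast-control rat 4, at 14.97 CPM beside 7.94 CPM in the next of the 5 blast-control rats.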

How the results depend on the processing

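The number of receptor genes at an unadjusted p under 0.05 was 0 under all 21 alternatives, so that only signs and sizes moved. Adra1b, Adra1d, Adra2a, Adra2c, Drd1 and Drd2 had a log2 fold change below 0 under each alternative, but single rats moved its size, to between -0.6017 and -0.2495, -0.4181 and -0.06426, -0.4148 and -0.1075, -0.3215 and -0.05735, -0.4281 and -0.1309, and -0.5913 and -0.2113 in this order. Adra1a, 0.03 with 12 libraries, was -1.094e-05 with DESeq2, -0.00209 with the library set and rat 6 left out, -0.001344 with DESeq2 and both of these changes, and -0.002188 to 0.07844 on leaving out single rats. Adrb1, 0.01 with 12 libraries, was -0.01412 with DESeq2, -0.01648 with RLE factors, -0.01799 with upper-quartile factors, -0.1068 with the library set, -0.1223 with the set and without rat 6, -0.007782 with DESeq2 without rat 6, -0.1203 with DESeq2, the set and no rat 6, and -0.1299 to 0.302 on leaving out single rats. Drd5, 0.17 with 12 libraries, was -0.0654 with limma-voom and -0.009436 to 0.3523 on leaving out single rats. In the permutation test, differences that were above 0 with rat 6 became -0.5167 (Adra1b), -0.3242 (Adra2a), -0.3212 (Drd1) and -0.3008 (Drd2) log2 CPM without it, over all assignments and within library sets, since rat 6 had 0 counts for these genes. Within 1 library set, Adra1a minus Adrb1 was -0.08717 log2 RPKM (set B) and Adra1b minus Drd2 -0.0334 (set A). Over all genes, 132 were at an unadjusted p under 0.05 with edgeR, 85 with DESeq2, 254 with no filter, 474 with the library set, 670 with the set and without rat 6, 279 with DESeq2 without rat 6, 736 with DESeq2, the set and no rat 6, and 85 to 214 on leaving out single rats, the fewest without rat 12 and rat 17 (85 each) or rat 1 (87) and the most without rat 5. The cause of these shifts was not tested. DESeq2 with the set and permutation within sets, both without rat 6, were chosen after seeing the data. No paired analysis was possible because the 2 groups share no rat number.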
